A study of Mus musculus with 6 samples.

Results

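Integrins are the receptors by which cells hold to the extracellular matrix, and laminins are the matrix proteins that many of them hold to. The family examined here comprised the genes whose symbols begin with Itga or Itgb, or with Lama, Lamb or Lamc and a digit. It held 39 of the 18193 genes with a probe set of their own in the deposited table: 24 integrin chains, 10 laminin chains and 5 genes that carry the name but are not integrin chains. Each gene was read from 1 probe set, that of highest mean over the 6 arrays. Of these genes 28 were bright enough to be tested and 11 were not.

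The tissue was heart from C57BL/6 mouse embryos at E12.5, hybridised to Affymetrix 3' expression arrays, with 3 arrays labelled wildtype and 3 labelled Rhau KO. The series text gives 3 hearts for each group. Rhau is the protein made by Dhx36, a helicase that unwinds four-stranded, guanine-rich structures called G-quadruplexes. Neither the part of the gene that was deleted nor what drove the deletion is given in the sources used here, and no treatment is named. Array data carry no read depth, so precision depends on how many arrays there are and on the spread of a gene between them.

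The targeted gene and the sex-linked genes bear on what the labels mean. The log2 signal of Dhx36 was 8.99, 8.88 and 8.71 in wildtype-labelled arrays and 10.10, 10.48 and 10.23 in KO-labelled arrays, all KO-labelled arrays being higher, which goes against the label. Whether its probe set lies in the deleted part is not known, and one outside it checks nothing. Groups, and every direction below, therefore follow the label only. The joint signal of 3 Y-linked genes (Uty, Kdm5d and Eif2s3y), set to 100% on the highest array, ran at 1.23%, 2.04% and 39.3% in wildtype-labelled arrays and at 59.6%, 82.8% and 100% in KO-labelled arrays. On the same kind of scale Xist, the RNA of the inactive X chromosome, ran at 100%, 98.0% and 77.2% and at 61.1%, 35.8% and 0.232%. So 3 arrays carried both signals, and the arrays differed in sex-linked signal along with the label. No label says if hearts of several embryos were pooled on an array. A single heart would not be expected to carry both signals, so those 3 arrays may hold more than a single embryo, which was not tested. Hence n = 3 counts arrays, which may not be single hearts. Heart muscle markers were bright in every array: the 7 cardiomyocyte genes summed to between 166000 and 197000 on the linear scale. Of the 12416 genes tested, 8.20% were called higher with the Rhau KO label and 10.8% lower, 19.0% in all, and 43.2% of the calls were higher. Centring each array on its median changed that split to 22.4% higher.

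An integrin is an alpha chain bound to a beta chain. The alpha chain largely sets which matrix protein is bound, and the tail of the beta chain recruits talin and kindlin, which tie the receptor to actin. A laminin is a cross-shaped trimer of an alpha, a beta and a gamma chain that polymerises into the basement membrane, the thin matrix sheet around heart muscle cells, vessels and the epicardium. Integrins, dystroglycan and sarcoglycans hold the muscle cell surface to that sheet.

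Of the 28 tested family genes, 5 fell, 3 rose and 20 did not pass, so 28.6% were called, beside a background of 19.0% over all genes. A gene passed when its adjusted p from limma, corrected over all 12416 genes, was under 0.05. The genes that fell were Itga6, Itgav, Itgb1bp2, Itgb5 and Itga1, and those that rose were Itga9, Lama2 and Itga8. The groups did not overlap for 11 of the 28 (39.3%), 5 higher and 6 lower, beside 37.1% of all genes, 18.4% higher and 18.7% lower. In whole hearts fewer cells of a type and less RNA per cell cannot be told apart. The median difference of the family was -0.06 on the log2 scale, labelled Rhau KO minus labelled wildtype, and that of all tested genes 0.01.

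**Figure D1:**
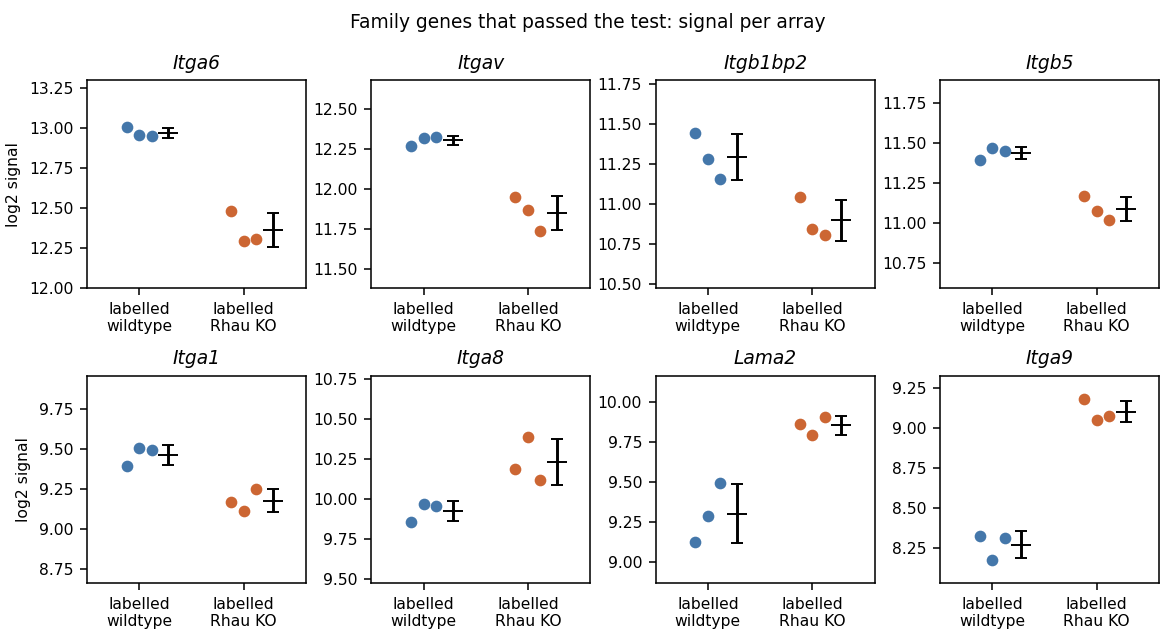
Log2 signal of each array (points) for the 8 family genes that passed the test, with mean and SD beside each group (3 arrays per label); every panel spans the same height on the log2 axis. In all 8 genes the groups lie apart, with Itga6 12.36 against 12.97 and Itga9 9.10 against 8.27.

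For 2 called genes in each direction, the stretch of chromosome just before the gene start is shown, since Dhx36 also unwinds G-quadruplexes in DNA and a guanine-rich pattern can be read directly from the letters. RefSeq sequence (GRCm38.p6) of the 250 bases before the annotated start was at hand for 26 of the 39 genes, and Itga6 and Itgb1bp2 are not among them. Shown 5′ to 3′ on the strand of the gene are, in each direction, the called genes of largest difference that had a window: Itga9 (chr9:118711442-118711691, plus strand) and Lama2 (chr10:27616943-27617192, minus strand), which rose, and Itgav (chr2:83724147-83724396, plus strand) and Itgb5 (chr16:33829415-33829664, plus strand), which fell. Capitals mark either GGGCGG (a GC box) on either strand or the G-quadruplex pattern, which is GGG repeated until there are 4 runs with 1 to 7 bases between them, on either strand.
Itga9: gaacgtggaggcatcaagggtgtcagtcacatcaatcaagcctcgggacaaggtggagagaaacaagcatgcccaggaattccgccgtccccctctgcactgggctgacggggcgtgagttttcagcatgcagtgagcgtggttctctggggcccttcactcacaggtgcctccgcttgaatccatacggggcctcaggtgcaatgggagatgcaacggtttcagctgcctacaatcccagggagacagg
Lama2: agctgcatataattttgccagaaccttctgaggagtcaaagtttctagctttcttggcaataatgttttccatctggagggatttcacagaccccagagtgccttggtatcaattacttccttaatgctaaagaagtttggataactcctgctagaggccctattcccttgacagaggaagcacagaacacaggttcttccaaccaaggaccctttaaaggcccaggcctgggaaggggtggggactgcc
Itgav: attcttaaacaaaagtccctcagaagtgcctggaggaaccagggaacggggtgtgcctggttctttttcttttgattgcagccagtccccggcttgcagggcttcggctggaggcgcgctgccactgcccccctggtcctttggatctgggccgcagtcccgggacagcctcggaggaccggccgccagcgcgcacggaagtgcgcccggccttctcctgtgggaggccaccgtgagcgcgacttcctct
Itgb5: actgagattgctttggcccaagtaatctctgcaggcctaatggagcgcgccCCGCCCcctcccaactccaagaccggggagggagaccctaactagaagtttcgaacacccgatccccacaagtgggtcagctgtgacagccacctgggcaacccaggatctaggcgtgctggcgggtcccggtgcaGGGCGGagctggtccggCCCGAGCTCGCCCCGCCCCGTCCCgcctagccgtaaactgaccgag
The G-quadruplex pattern lay in the Itgb5 window alone of these, on the strand opposite the gene, from 46 to 23 bases before the start, where it overlaps a GC box. Among all family windows it lay in 4 of 29, namely Itga3, Itga4, Itgb5 and Lamb2, and among 32851 RefSeq windows of that length in 16.6%. GGGCGG lay in 32.7% of all windows. Of the called genes with a window, 1 of the 3 that fell and 0 of the 3 that rose carried the pattern, and 3 of 13 that were tested and not called. These matches describe letters in a window only.

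Among the laminin-binding alpha chains, Itga6 showed the clearest fall in the family. Itga6 pairs with Itgb1 or Itgb4 to bind laminin and is made by early heart muscle cells and endothelium. Its signal was 13.01, 12.95 and 12.95 in wildtype-labelled arrays and 12.48, 12.29 and 12.31 in KO-labelled arrays. All KO-labelled arrays lay below all others, and the spread within a label was small (SD 0.03 and 0.11, n = 3 each). The difference was -0.61 (SE 0.057, 95% interval -0.73 to -0.48), a 1.52-fold lower level with adjusted p = 5.94e-05 by limma. The other Itga6 probe set gave the same picture, at 11.83, 11.76 and 11.62 against 11.00, 11.04 and 10.99. Its difference was -0.73. Itga3, another laminin receptor chain best known from epithelia, was at 8.49 ± 0.09 and 8.56 ± 0.28 (mean ± SD, n = 3), and its difference of 0.07 had an interval from -0.24 to 0.37. Itga7, the laminin receptor of mature muscle, was too dim to be tested. Its signals were 5.38, 6.13 and 5.84 against 5.06, 4.04 and 3.31.

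Among the chains that bind the arginine-glycine-aspartate (RGD) motif of fibronectin and vitronectin, Itgav fell and Itga8 rose. Itgav, which pairs with several beta chains and can activate latent TGF-beta, was at 12.27, 12.32 and 12.32 under the wildtype label and at 11.95, 11.87 and 11.73 under the Rhau KO label. The groups lay apart by a difference of -0.45 (SE 0.058), a 1.37-fold lower level with limma adjusted p = 4.96e-04. No other Itgav probe set reached the level for testing, and averaging all of them gave -0.32 without a call. Itga8, a receptor for nephronectin that is needed for kidney development in mice, was at 9.85, 9.97 and 9.96 against 10.19, 10.39 and 10.12. It rose 1.24-fold (difference 0.31, SE 0.081, limma adjusted p = 0.0235). That call was the weakest beside that of Itga1: it was kept in 2 of 6 fits that left out an array, being lost without replicate 1, 2 or 3 labelled wildtype or replicate 2 labelled Rhau KO, where differences ran from 0.23 to 0.33, and it was also lost after median centring (0.24), without the variance trend (0.31) and with averaged probe sets (0.47).

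The fibronectin receptor chain Itga5 gave different answers by probe set. Its brightest probe set, marked by its suffix as shared with other transcripts, was at 7.44 ± 0.02 and 7.36 ± 0.26 (n = 3), a difference of -0.08 without a call. A second probe set was at 6.75, 6.81 and 7.15 in wildtype-labelled arrays and at 7.68, 7.68 and 7.44 in KO-labelled arrays. Its groups did not overlap, and its difference of 0.70 passed when every probe set was tested on its own (limma adjusted p = 0.0221; 14.6% of 22796 probe sets passed there). The remaining one above the filter differed by 0.25 without a call. Which of these follows Itga5 mRNA was not tested. Itga2b, the platelet chain that pairs with Itgb3, spread widely under the Rhau KO label, at 8.17, 7.49 and 8.66, against 8.28, 8.36 and 8.62 under the wildtype label. The groups overlapped, and neither Itga2b (-0.31, SE 0.239) nor Itgb3 (0.03, SE 0.264) passed. Of 5 tested megakaryocyte and platelet markers none was called by limma, 1 had an unadjusted p under 0.05, and their median difference was -0.08.

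Itga9 showed the largest rise in the family. It pairs with Itgb1, binds tenascin-C, VCAM-1 and a spliced form of fibronectin, and is needed for lymphatic valves in mice. Signals were 8.33, 8.18 and 8.31 in wildtype-labelled arrays and 9.18, 9.05 and 9.08 in KO-labelled arrays, with a wide gap between the groups. The difference was 0.83 (SE 0.095, 95% interval 0.62 to 1.04), a 1.78-fold higher level with limma adjusted p = 2.39e-04. The other Itga9 probe sets above the filter differed by 0.30 and 0.45, in the same direction but without a call. The related chain Itga4, which also binds VCAM-1 and keeps the epicardium attached in mice, did not pass: 9.07 ± 0.24 and 8.98 ± 0.09 (n = 3), with an interval of the difference from -0.36 to 0.18. No epicardial marker of 6 passed limma's adjusted test in the same arrays, and 3 had an unadjusted p under 0.05.

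Of the collagen-binding chains, Itga1, a receptor for basement membrane collagen, was at 9.39, 9.51 and 9.49 under the wildtype label and at 9.17, 9.11 and 9.25 under the Rhau KO label. The groups lay apart. The difference was -0.29 (SE 0.079), a 1.22-fold lower level with limma adjusted p = 0.0294, and the call was kept in 2 of 6 fits without 1 array: it was lost without wildtype-labelled replicate 2 or 3 and without KO-labelled replicate 1 or 2, at differences from -0.28 to -0.25. Averaged with its dim second probe set, Itga1 stood at 0.10 without a call. Itga10, a chain known from cartilage, differed by -0.19 (SE 0.245), and Itga2 lay just below the filter at a mean of 5.89. The leukocyte chain Itgal was at 7.21, 6.97 and 6.93 against 6.60, 6.70 and 6.73. These groups did not overlap, yet the difference of -0.36 (SE 0.182) did not pass. Its partner Itgb2 differed by -0.14 without a call. Of 7 macrophage and leukocyte markers 2 rose (28.6%, beside 8.20% of all genes), Lyz2 by 2.98 and Mrc1 by 0.43.

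Beta chains are shared by many alpha chains. Itgb5, which pairs with Itgav to bind vitronectin, was at 11.39, 11.47 and 11.45 in wildtype-labelled arrays and at 11.17, 11.07 and 11.02 in KO-labelled arrays. Its groups lay apart by -0.35 (SE 0.056), a 1.28-fold lower level with limma adjusted p = 0.00185. All 4 Itgb5 probe sets passed on their own, with differences between -0.35 and -0.32. Some of them are marked by their suffix as open to binding other transcripts, and all were read on the same arrays. Itgav and Itgb5, the chains of a single receptor, thus both fell.

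Itgb1, the partner of most alpha chains in heart muscle, did not pass, and its probe sets pointed apart. The brightest was at 11.62, 11.21 and 11.31 with the wildtype label and 11.17, 10.99 and 11.21 with the other, where replicate 1 labelled wildtype stood above the rest and the groups overlapped narrowly. Its difference of -0.25 (SE 0.0995) had an interval from -0.47 to -0.04 and a limma adjusted p of 0.102. A second probe set ran at 10.89, 10.77 and 10.80 against 11.02, 10.97 and 10.91, without overlap and the other way, at 0.14 without a call. The direction of Itgb1 is therefore unsettled in these arrays. Itgb8, which pairs with Itgav and binds latent TGF-beta, was at 8.61, 9.12 and 8.69 against 9.19, 9.68 and 8.94. These groups overlapped, and the difference of 0.46 (SE 0.183) did not pass with limma adjusted p = 0.104. It rested on single arrays, standing at 0.63 with a call without KO-labelled replicate 3 and at 0.26 without one when KO-labelled replicate 2 was left out.

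**Figure D2:**
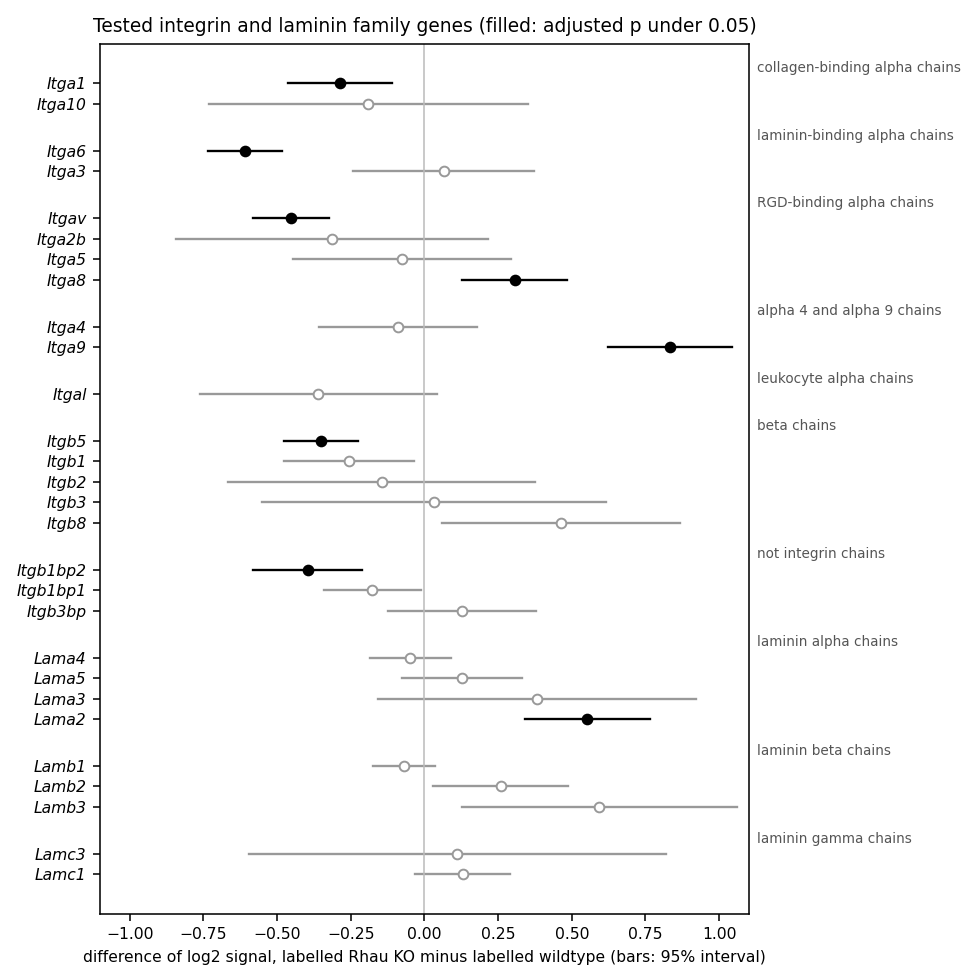
Difference of log2 signal (labelled Rhau KO minus labelled wildtype, x axis) with its 95% interval for the 28 tested family genes, grouped by role; filled points passed the test. Integrin chains lie on both sides of 0, from -0.61 for Itga6 to 0.83 for Itga9, and Lama2 at 0.55 is the filled point among the laminins.

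**Figure D3:**
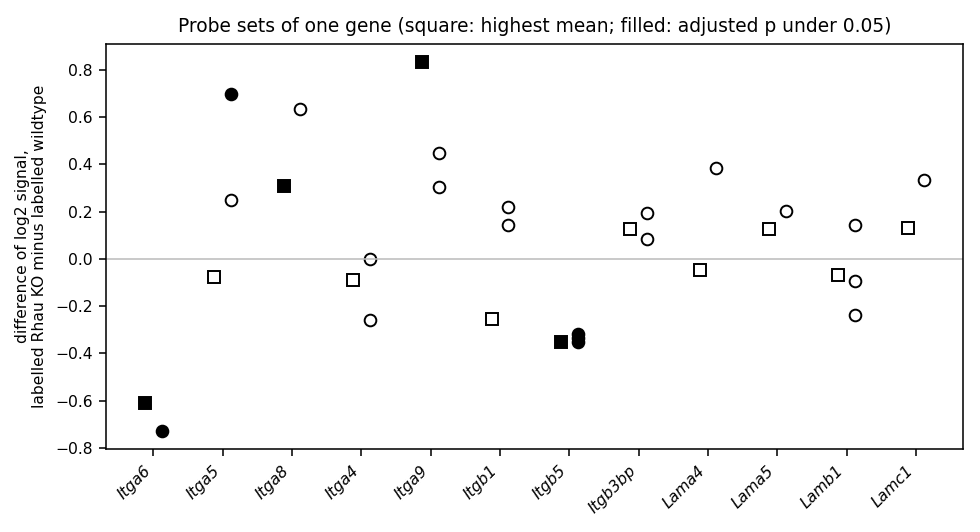
Difference of log2 signal (labelled Rhau KO minus labelled wildtype, y axis) for each probe set above the filter of the 12 family genes with more than 1 such probe set; squares are the brightest probe set of a gene and filled marks passed the test. The 4 probe sets of Itgb5 coincide, while those of Itga5 and Itgb1 lie on both sides of 0.

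Across genes with several probe sets above the filter, 7 further probe sets belonged to called genes. All 7 pointed the same way as the brightest one, 4 of them passed and 0 passed in the opposite direction. Of the 14 that belonged to genes not called, 1 passed, the Itga5 probe set described above.

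Laminin chains showed 1 call among 9 tested (11.1%, beside 19.0% of all genes), that of Lama2. Lama2 is the alpha chain of the laminin that surrounds muscle fibres, and its loss causes a muscular dystrophy in mice and people. Its signal was 9.12, 9.29 and 9.49 in wildtype-labelled arrays and 9.86, 9.80 and 9.91 in KO-labelled arrays. Every array labelled Rhau KO was higher than every other, although replicate 3 labelled wildtype came closest. The difference was 0.55 (SE 0.096, 95% interval 0.34 to 0.76), a 1.47-fold higher level with limma adjusted p = 0.00280. A single probe set names Lama2.

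The laminin chains of vessels and of embryonic basement membranes in general did not pass. Lama4, the alpha chain of vascular laminin, was at 11.68 ± 0.09 and 11.63 ± 0.08 (n = 3), and its interval ran from -0.18 to 0.09. A dimmer Lama4 probe set was higher in all KO-labelled arrays, at 7.67, 7.86 and 7.82 against 7.54, 7.38 and 7.29, without a call. Lama5, found in most basement membranes, differed by 0.13 (SE 0.092). Lamb1 and Lamc1, the beta and gamma chains common to most laminins of the embryo, differed by -0.07 (interval -0.17 to 0.03) and by 0.13 (interval -0.03 to 0.29). For the brightest Lamb1 probe set alone, the interval leaves room for a shift of no more than 0.17 on the log2 scale in either direction. Other Lamb1 probe sets above the filter differed by 0.14, -0.10 and -0.24 without a call. A dimmer Lamc1 probe set was higher in all KO-labelled arrays, at a difference of 0.33 without a call. The brightest Lamb1 probe set is marked as shared with other transcripts.

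Lamb2 and Lamb3 were each higher in all KO-labelled arrays without passing. Lamb2, a beta chain of muscle and kidney basement membranes, was at 8.53, 8.61 and 8.75 against 8.87, 8.77 and 9.02, a difference of 0.26 (SE 0.103, limma adjusted p = 0.109). Lamb3, part of the laminin that anchors skin epithelium, was at 6.32, 6.22 and 6.55 against 7.18, 6.73 and 6.96. Its difference was 0.59 (SE 0.211, limma adjusted p = 0.0749), at signals not far above the filter level of 5.90. Lama3, of the same skin laminin, differed by 0.38 (SE 0.245) and Lamc3 by 0.11 (SE 0.320), both dim and with overlapping groups.

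There were 5 genes with an integrin name that are not integrin chains, and 1 of them passed. Itgb1bp2 encodes melusin, a chaperone-like protein of striated muscle that binds the Itgb1 tail and in mice protects the heart under pressure load. It was at 11.44, 11.28 and 11.16 under the wildtype label and at 11.04, 10.84 and 10.81 under the Rhau KO label. The groups lay apart by -0.40 (SE 0.084), a 1.32-fold lower level with limma adjusted p = 0.00851. Across the 6 arrays the Itgb1bp2 signal fell in the same order in which Y-linked signal rose, also within each label. With Y-linked signal as a covariate its difference was -0.0114, and the part of sex-linked signal in the fall was not tested. Itgb1bp1, another protein that binds the Itgb1 tail, differed by -0.18 (limma adjusted p = 0.125), and Itgb3bp, a centromere protein, by 0.13 (limma adjusted p = 0.478). Itgb2l, which resembles Itgb2, and Itgbl1, a secreted protein with integrin-like repeats, lay below the filter.

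The 11 genes below the filter are given as values without a test, since signals this low are not told apart from background here. Their means over 6 arrays ran from 3.51 for Itgb4 to 5.89 for Itga2. Itga2 and Lama1, at 5.84, lay just under the level of 5.90, and Lamc3 at 6.00 just above it. Itga7 and the myeloid chain Itgam, at 3.89, 4.19 and 4.31 against 2.91, 3.58 and 2.98, were lower in all KO-labelled arrays. Groups overlapped for the other 9, namely Itga2, Itgae, Itgax, Itgb4, Itgb6, Itgb7, Itgb2l, Itgbl1 and Lama1.

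Proteins that work with integrins and laminins were read from lists of genes with known roles, drawn up with earlier results of these data known, so their counts are a description. Of 47 tested partners 12 fell, 5 rose and 30 did not pass, so 36.2% were called, beside 19.0% of all genes, and the median was -0.08. Inside the cell, 7 of 22 adapters and kinases fell (31.8%, beside 10.8% of all genes) and 2 rose (9.09%, beside 8.20%). Lims2, which with the kinase Ilk links integrins to actin, was at 8.62, 8.54 and 8.70 against 8.28, 7.54 and 7.72, a difference of -0.78 (SE 0.173, limma adjusted p = 0.0110) with replicate 1 of the KO-labelled arrays highest of its group. The kinase gene Ptk2b was at 8.49, 8.50 and 8.45 against 7.92, 7.81 and 8.02, a difference of -0.56 (SE 0.110, limma adjusted p = 0.005435). Tln2, the talin of muscle, was at 10.31, 10.25 and 10.21 against 9.74, 9.91 and 9.83, a difference of -0.43 (SE 0.068, limma adjusted p = 0.001701). In each of these the groups lay apart. Actn1, an actin crosslinker at adhesion sites, rose instead, from 11.87, 11.79 and 11.76 to 12.30, 12.18 and 12.24 (difference 0.44, limma adjusted p = 2.86e-04). Lims1, related to Lims2 and brighter, also rose, from 11.16, 11.25 and 11.15 to 11.48, 11.62 and 11.49 (difference 0.34, limma adjusted p = 0.002256). Averaged over all probe sets of the gene, Ptk2b stood at -0.65, Tln2 at -0.28 and Actn1 at 0.19, none with a call.

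Outside the cell, the basement membrane list had 3 of 14 lower (21.4%, beside 10.8% of all genes) and 2 higher (14.3%, beside 8.20%). Dag1, which encodes dystroglycan, the main laminin receptor of muscle that is no integrin, was at 12.59, 12.63 and 12.64 against 12.37, 12.44 and 12.40. The groups lay apart by -0.22 (SE 0.044, limma adjusted p = 0.007111), and the call was lost without the variance trend (adjusted p = 0.05502). Sgcb, a sarcoglycan of the same complex, differed by -0.30 and Nid2, which links laminin to collagen IV, by -0.33, both with a call. The related and brighter Nid1 rose instead, from 12.02, 12.15 and 12.06 to 12.23, 12.41 and 12.20 (difference 0.20, limma adjusted p = 0.04755). Agrn, a heparan sulfate proteoglycan that binds laminin and dystroglycan, was at 11.51, 11.37 and 11.36 against 11.84, 11.74 and 11.79, a rise of 0.38 (SE 0.058, limma adjusted p = 0.00148). It stood at 0.53 without a call when all its probe sets were averaged. Calls for Nid2 were lost without replicate 1 or 3 labelled wildtype, and those for Sgcb without replicate 1 or 2 labelled wildtype or replicate 1 labelled Rhau KO. Without the variance trend both calls were lost, and with averaged probe sets that of Sgcb (-0.21).

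Among 11 other ligands and surface partners of integrins, 2 fell (18.2%, beside 10.8% of all genes) and 1 rose (9.09%, beside 8.20%). Cd47, a partner of integrins and receptor of thrombospondin, was at 11.05, 10.88 and 10.91 under the wildtype label and at 10.47, 10.32 and 10.46 under the Rhau KO label, with the groups apart. Its difference was -0.53 (SE 0.068, limma adjusted p = 4.81e-04), and -0.20 without a call when its probe sets were averaged. Thbs1, which encodes thrombospondin, fell by 0.30 on the log2 scale (limma adjusted p = 0.006447). Icam1, a ligand of leukocyte integrins, rose by 0.57 with limma adjusted p = 0.0488, and its call was lost without replicate 2 or 3 labelled wildtype or replicate 1 or 2 labelled Rhau KO, at 0.44 to 0.60. The call was kept under 5 of 10 other settings that used all arrays. Ligands of Itga9 and Itga4 did not pass: Tnc differed by 0.14 and Vcam1 by -0.13.

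**Figure D4:**
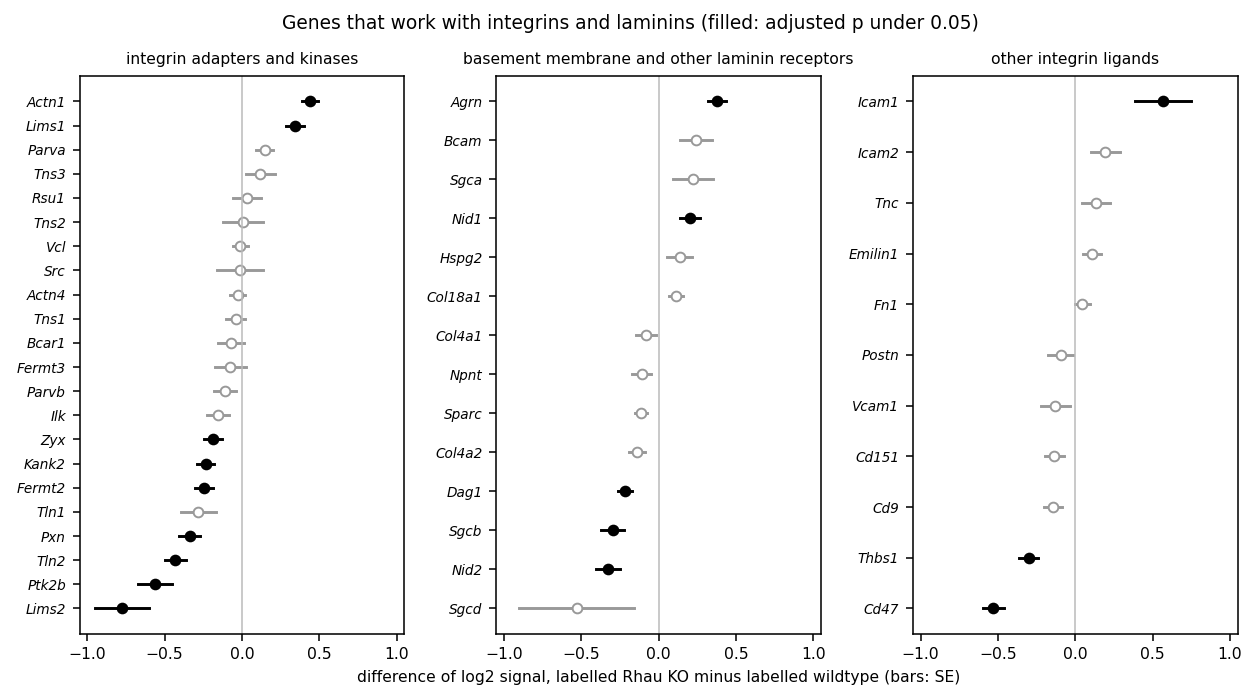
Difference of log2 signal (labelled Rhau KO minus labelled wildtype, x axis) with its SE for 47 tested genes that work with integrins and laminins, in 3 lists; filled points passed the test. Of the filled points 12 lie below 0, with Lims2 at -0.78 lowest, and 5 above, with Icam1 at 0.57 highest.

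Cell markers moved in the same arrays, where 8.20% of all tested genes were called higher and 10.8% lower. These lists are short, so a single call makes a large share. The 4 tested red cell markers all fell, with a median of -1.33, and their summed linear signal spanned 6290 to 8280 in wildtype-labelled arrays and 1910 to 3870 in KO-labelled ones. Of 6 endothelial markers 3 rose, Kdr by 0.63, Cdh5 by 0.50 and Tie1 by 0.34, with sums of 8050 to 8930 and 9260 to 9940. Pecam1 (0.07), Tek (0.12) and Emcn (-0.03) were not called. Cardiomyocyte markers had 2 of 7 lower and 0 higher, with sums of 189000 to 197000 and 166000 to 193000. Both tested skeletal muscle markers fell, Ckm by 1.04 and Tnni2 by 0.89 on the log2 scale, with sums of 4090 to 4780 and 2240 to 2620. The list also held Myod1 and Myog, which lay below the filter at differences of -0.43 and 0.63. Whether Ckm and Tnni2 mark skeletal muscle in these hearts was not tested. Smooth muscle markers had 1 of 4 lower (Cnn1, -0.36) and epithelial markers 1 of 3 (Krt18, -0.41). Neural crest and neuron markers had 3 of 4 higher, with sums of 2670 to 2930 and 4380 to 4660, and fibroblast markers had 1 higher and 1 lower of 6. None of the genes in these lists was at 0 on any array. The part of these markers in the integrin and laminin differences was not tested.

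Sex-linked signal differed along with the label, so each call was set beside it. With Y-linked signal as a covariate, added after seeing the data, none of the 8 family genes passed limma's test, where 1.43% of all genes did. At an unadjusted limma p under 0.05 there were 3 of the 28 tested family genes (Itga6, Itgav and Itga9), beside 1826 of 12416 genes. SEs were larger, for Itga6 0.116 against 0.057. The difference then stood at -0.44 for Itga6, -0.33 for Itgav, -0.25 for Itgb5, -0.38 for Itga1, 0.86 for Itga9, 0.30 for Itga8 and 0.25 for Lama2, each with its earlier sign, while Itgb1bp2 lost almost all of its difference. The 3 arrays that carry both Xist and Y-linked signal hold a lone wildtype-labelled array and are given as values without a test. There Itga6 stood at -0.56, Itgav at -0.42, Itgb5 at -0.33, Itga1 at -0.35, Itgb1bp2 at -0.21, Itga9 at 0.81, Itga8 at 0.34 and Lama2 at 0.33.

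**Figure D5:**
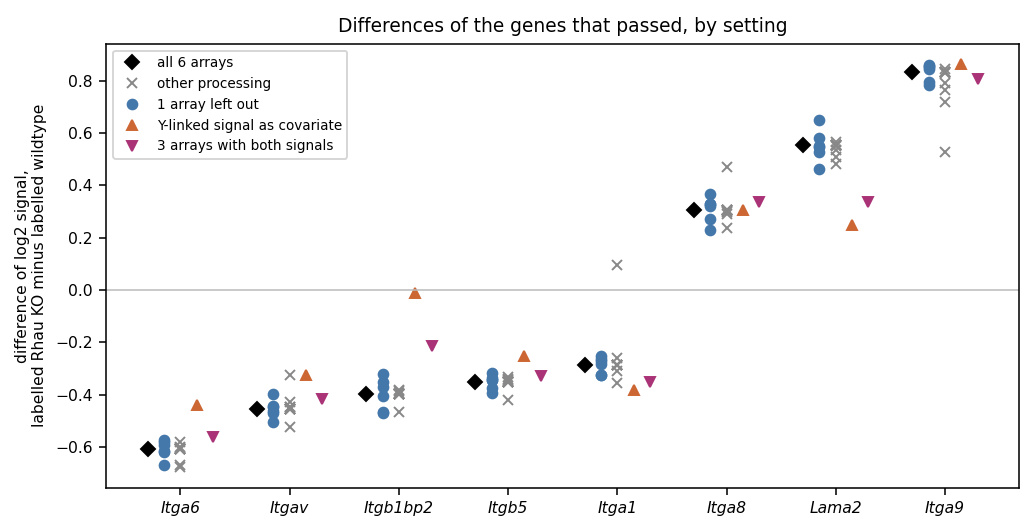
Difference of log2 signal (labelled Rhau KO minus labelled wildtype, y axis) of the 8 family genes that passed, under each setting; diamonds use all 6 arrays, circles leave out 1 array, crosses change the processing, and triangles use the Y-linked covariate or only the 3 arrays with both sex-linked signals. Itga6 lies between -0.68 and -0.44 and Itga9 between 0.53 and 0.86 under the settings shown, while Itgb1bp2 reaches -0.01 with the covariate and Itga1 crosses 0 when its probe sets are averaged.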

How the data were processed

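Biotin-labelled RNA from embryonic hearts went onto 1 array for each sample. Signals deposited by the authors are on the log2 scale, and the submitters' processing notes name MAS5 without a version. Values back on the linear scale had a 2% trimmed mean of 500 on all 6 arrays, which is a scaling per array, and array medians lay between 6.68 and 6.80. They were used as deposited, with no pseudocount. All 6 columns matched a sample.

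Of 45101 probe sets, 64 controls were left out and 34945 name 1 gene, 932 several and 9160 none, per the platform annotation. Its Entrez identifiers matched RefSeq (GRCm38.p6) for 34741. Each gene was read from its probe set of highest mean, and genes below the lowest 40% of probe sets (5.90) were left untested, leaving 12416 of 18193. The 3 arrays of each label were compared with limma 3.58.1 in R 4.3.3 (lmFit, eBayes with trend), two-sided, with Benjamini-Hochberg adjustment at 0.05. The test was checked on simulated data. No 2 arrays of a label were copies. Replicates are arrays, so p-values measure the spread between arrays.

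Every family gene is named, along with up to 4 called genes of largest difference in each partner list. Lims1 and Nid1 are named besides, as relatives of Lims2 and Nid2 called the other way, and were not followed under the alternatives. Members, lists and tests were chosen with earlier results of these data known. Alternatives changed the normalization, pseudocount, filter, probe set rule, variance model, array weights, replicate block and arrays left out. The Y-linked covariate and the 3 arrays with both sex-linked signals were added after seeing the data. Same-numbered arrays of the labels had deviations correlated at -0.01, 0.04 and 0.01, so the numbers were not taken to pair them. Python 3.11.15 with pandas 2.3.3 prepared the tables and matplotlib 3.10.9 the plots.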

Additional observations from a re-analysis of the deposited data

How the results depend on the processing

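Among the 8 family genes that passed, Itga6, Itga9, Itgb5 and Lama2 passed under each of 10 other settings that kept all arrays, the covariate below aside, and in each of 6 fits without 1 array. In the same fits Itgav lost its call when probe sets were averaged and Itgb1bp2 without the variance trend (adjusted p = 0.0588), while Itga1 and Itga8 were each kept in 2 of the 6. With all arrays Itga1 lost its call with averaged probe sets (9 of 10 settings kept it), and Itga8 with averaged probe sets, after median centring and without the trend (7 of 10). Signals near or below 5.90 and probe sets that disagree limit the dimmer genes. Over the 12416 genes, 2354 were called, 1018 higher and 1336 lower. Family genes higher and lower numbered 3 and 5, and partners called 17, with 5 higher and 12 lower.

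Median centring gave 532 genes higher and 3 partners higher; no filter gave 3 partners higher. Averaged probe sets gave 3 family genes lower, 7 partners called (1 higher, 6 lower) and 1432 genes called (608 higher, 824 lower). Without the variance trend 8 partners (3 higher, 5 lower) and 1492 genes (614 higher, 878 lower) were called. Testing every probe set gave 9 family probe sets lower and 1550 probe sets higher. With the Y-linked covariate, chosen after seeing the data, 0 family genes were higher and 0 lower, 0 partners were called (0 higher, 0 lower; 12 of 47 at an unadjusted p under 0.05 by limma), and 178 genes were called (46 higher, 132 lower). The 3 arrays with both signals, also chosen afterwards, leave a lone wildtype-labelled array assumed to vary like the KO-labelled pair, so their counts carry no weight as calls. They gave 2 family genes lower, 4 partners (3 higher, 1 lower) and 746 genes (298 higher, 448 lower). Leaving out 1 array gave 2 to 4 family genes higher and 4 to 5 lower, 11 to 17 partners (3 to 5 higher, 8 to 12 lower), and 1506 to 2008 genes (590 to 802 higher, 916 to 1206 lower). The cause of these shifts was not tested.

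Signs turned for 1 called gene, Itga1, at 0.0967 with averaged probe sets. Among genes not called, averaged probe sets gave Itga5 0.7257, Itgb1 0.2944, Lama4 0.1683 and Lamc3 -0.1517. Median centring gave Itga3 -0.0036 and Itgb3 -0.0363, and quantile normalization Itgb3 -0.0432. The covariate gave Itga3 -0.4202, Itgb1bp1 0.0236, Lama4 0.0708, Lamb2 -0.0071, Lamc1 -0.0945 and Lamc3 -0.3905, and the 3 arrays Itga3 -0.0846. With 1 array left out, Itga3 ranged from -0.0277 to 0.2257, Itga5 from -0.2113 to 0.0507, Itgb3 from -0.1804 to 0.2692, Lama4 from -0.079 to 0.0035 and Lamc3 from -0.1296 to 0.4117.

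With the replicate number as a block, 4 family genes were higher and 6 lower: Itgb1 (-0.25, adjusted p = 0.0440) and Itgb8 (0.46, adjusted p = 0.0155) passed in addition. The block gave 16 partners and 2255 genes called. Same-numbered arrays did not each correlate best with one another, so these calls carry no weight as paired results.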
